A study of Mus musculus with 8 samples.

Results

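Azurophil (primary) granules are the first granules that developing neutrophils make, and the 8 genes examined here encode proteins of these granules or of the stage at which they form: Mpo, Elane, Prtn3, Ctsg, Prss57, Ctsc, Ms4a3 and Bpi. They were chosen by name, as a list of azurophil granule genes of promyelocytes, when earlier results of these data were known. All 8 were found among the 23369 genes of the count table. Neutrophils had been sorted as CD45+CD11b+Ly6G+ cells from digested spinal cords. The mice were C57BL/6N and had EAE (experimental autoimmune encephalomyelitis), an inflammatory disease of brain and spinal cord induced in mice to model multiple sclerosis. One group was taken at ZT1 (zeitgeber time, hours after lights on; n = 4) and the other at ZT13 (n = 4), and RNA from each was sequenced. Both groups had EAE and the same strain, and the labels separate them by time of day alone. A group without EAE, the inducing agent, age, sex and the day of disease are not given in the labels. The labels name no animals, so p-values measure the spread between these samples, which may be partly technical.

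Azurophil granule genes are transcribed mainly at the promyelocyte stage in bone marrow, and their mRNA declines as the cell goes on to make specific and gelatinase granules, while the proteins stay stored in the granules of the mature cell. Myeloperoxidase makes hypochlorous acid from hydrogen peroxide, and the neutrophil serine proteases are made as inactive precursors that cathepsin C trims to the active enzyme. The mRNA measured in tissue neutrophils is therefore a separate quantity from the stored protein, which RNA sequencing does not read.

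The start regions of the genes are shown as a description, and their part in the levels was not tested. RefSeq promoter windows of build GRCm38.p6 were found for 7 of the 8 genes (Prss57 is named only), and each was read over the 250 bases before the RefSeq start site. Of each window except that of Bpi, the bases before the first GENCODE M21 exon base within it are printed, which shortens Mpo, Elane and Prtn3. The Bpi window is counted below but not printed. The Prtn3 stretch lies before the first exon of its protein-coding transcript and within an intron of a longer non-coding Prtn3 transcript. Capitals mark the letters AGGAAGT or their reverse complement ACTTCCT, a purine-rich core of the kind bound by ETS factors such as PU.1, the myeloid transcription factor. The regions are chr11:87793534-87793580 on the plus strand for Mpo, chr10:79886062-79886246 on the plus strand for Elane, chr10:79879417-79879613 on the plus strand for Prtn3, chr14:56102575-56102824 on the minus strand for Ctsg, chr7:88277835-88278084 on the plus strand for Ctsc and chr19:11640852-11641101 on the minus strand for Ms4a3, each written 5′ to 3′ on the strand of its gene.
Mpo: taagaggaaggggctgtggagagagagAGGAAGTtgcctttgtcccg
Elane: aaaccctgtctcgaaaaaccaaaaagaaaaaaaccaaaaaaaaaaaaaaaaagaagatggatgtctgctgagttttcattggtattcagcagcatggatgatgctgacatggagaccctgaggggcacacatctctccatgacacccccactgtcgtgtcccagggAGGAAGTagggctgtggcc
Prtn3: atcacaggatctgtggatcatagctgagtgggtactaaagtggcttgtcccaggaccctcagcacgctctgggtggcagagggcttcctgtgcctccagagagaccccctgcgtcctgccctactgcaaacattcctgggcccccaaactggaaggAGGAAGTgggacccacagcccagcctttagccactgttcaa
Ctsg: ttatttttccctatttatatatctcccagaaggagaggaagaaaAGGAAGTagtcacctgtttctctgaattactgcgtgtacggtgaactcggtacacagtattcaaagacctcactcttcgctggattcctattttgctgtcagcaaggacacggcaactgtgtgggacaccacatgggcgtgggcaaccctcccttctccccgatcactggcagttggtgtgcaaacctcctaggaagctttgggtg
Ctsc: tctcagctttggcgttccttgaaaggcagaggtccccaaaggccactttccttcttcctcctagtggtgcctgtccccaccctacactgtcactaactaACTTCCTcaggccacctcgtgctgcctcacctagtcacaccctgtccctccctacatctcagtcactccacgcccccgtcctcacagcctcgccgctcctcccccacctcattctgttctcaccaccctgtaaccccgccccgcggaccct
Ms4a3: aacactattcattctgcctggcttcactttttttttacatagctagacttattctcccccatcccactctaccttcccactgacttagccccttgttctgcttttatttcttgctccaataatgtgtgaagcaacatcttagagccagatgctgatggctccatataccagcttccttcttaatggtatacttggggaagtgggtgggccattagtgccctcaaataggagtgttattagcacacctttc

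AGGAAGT, searched on both strands, was present in 5 of the 7 windows: Mpo, Elane, Prtn3 and Ctsg carried it on the gene's own strand, and Ctsc on the opposite one. Its first base lay 223 bases before the start in Mpo, 84 in Elane, 94 in Prtn3, 206 in Ctsg and 151 in Ctsc. Of all 32851 promoter windows of the same length, 7.69% held it. The shorter GGAAGT, which every AGGAAGT contains, added Ms4a3 (55 bases before the start) and made 6 of 7, against 19.7% of all windows. The motif was picked after these windows had been read, so the counts are a description. AGGAAGT stood in Ctsc, which was outside the group of members that varied together, described below. It did not stand in Ms4a3, which was in that group. A part of the motif in the shared variation was not tested. AACNG, the core of the MYB motif, was in 6 of 7 windows and in 74.2% of all. TGNGGT, the RUNX core, was in 3 of 7 and in 40.1% of all, and TTGCNNAA, a C/EBP pattern, was in 0 of 7 and in 9.56% of all. A missing match says only that these letters do not stand in this window.

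Total counts were 46152067 to 67873023 per library. Genes with 1 or more counts numbered 16891 ± 815 (SD, n = 4) at ZT1 and 14908.5 ± 766 at ZT13. The groups were separated only narrowly, with 15760 in the lowest ZT1 library (replicate 4) and 15751 in the highest ZT13 library (replicate 2). An exact permutation test, two-sided, gave p = 0.0286, which cannot go lower with 4 libraries a group. For genes with 10 or more counts the groups overlapped (exact permutation test, two-sided, p = 0.0571). These numbers were not adjusted for total count, which was largest in ZT1 replicate 4. Per exonic length, scaled to a fixed library sum (TPM), the specific granule transcripts Ngp, Ltf and Camp averaged 72481, 22079 and 13773, and Lyz2, a lysozyme of several granule types, averaged 43224. The cytosolic S100a9 averaged 144530.

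No azurophil gene passed the test between the time points. By edgeR's quasi-likelihood test, 0 of the 7 tested members had an adjusted p under 0.05, as did 0% of all 12610 genes tested, and Bpi was too low to test. At an unadjusted p under 0.05, 1 member (Ctsc, lower at ZT13) was called, against 9.2% of all genes in either direction and 4.85% lower at ZT13. No member's libraries separated the groups without overlap, against 5.66% of all genes. The log2 fold change of ZT13 over ZT1 was positive for 3 members and negative for 4 of 7, beside 52.3% negative among all genes, with a median of -0.17 beside -0.02. DESeq2, run as an alternative, called 0 members and 0.94% of the genes it tested.

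**Figure D1:**
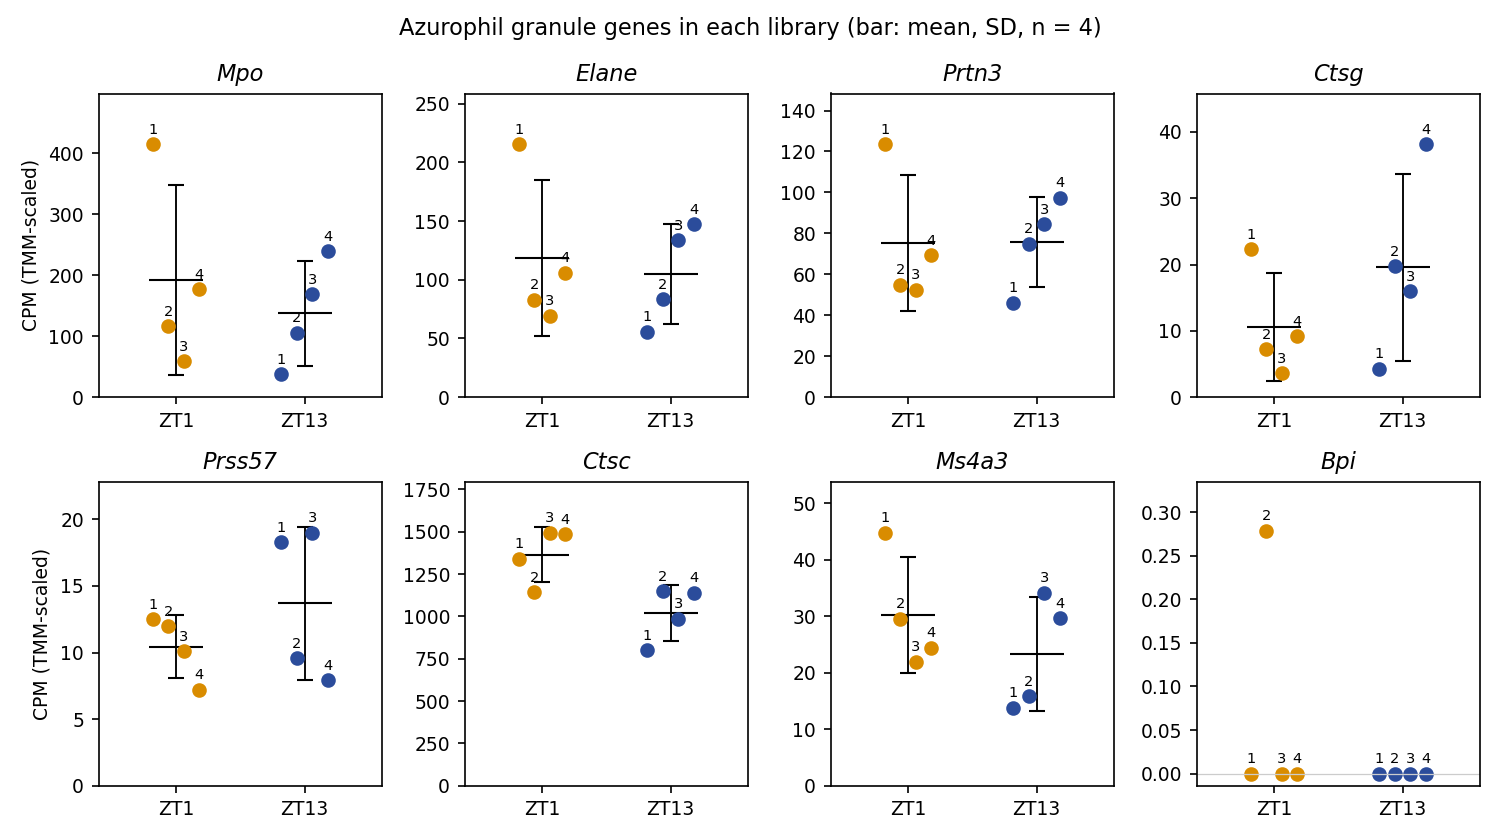
Level of each of the 8 genes in every library, in CPM (linear axis), with points for the 4 ZT1 and 4 ZT13 libraries and the mean ± SD beside them (no error bar for Bpi). ZT1 replicate 1 tops the Mpo, Elane, Prtn3 and Ms4a3 panels and ZT13 replicate 1 is lowest in all 4, and in each panel other ZT13 libraries lie above other ZT1 libraries.

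Mpo, the gene of myeloperoxidase (chr11:87793581-87804413, plus strand, 15 exons), varied most among the abundant members. Its levels at ZT1 were 415, 116, 59.2 and 177 CPM in replicates 1 to 4, where CPM is the count scaled to library size and composition. At ZT13 they were 37.7, 106, 169 and 239 CPM. The highest and the lowest library belonged to different groups, and each group spanned most of the range of the other. The means were 192 ± 156 (SD, n = 4) at ZT1 and 138 ± 86.1 CPM at ZT13, for a log2 fold change of -0.48 ± 0.62 (SE; 95% interval -1.87 to 0.92; edgeR adjusted p = 0.881). Within the same group, levels differed 7.01-fold at ZT1 and 6.33-fold at ZT13. Leaving out single libraries gave -0.88 (without ZT13 replicate 4) to 0.23 (without ZT1 replicate 1), so that its sign turned. The SD of log2 CPM over the 8 libraries was 1.10, higher than in 99.93% of the 1409 tested genes whose mean CPM lay within 2-fold of that of Mpo. In sorted bulk cells, fewer cells with a transcript and less of it per cell cannot be told apart.

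Elane and Prtn3, the genes of neutrophil elastase and proteinase 3, lie 3073 bases apart on chromosome 10. Elane (chr10:79886247-79888215, plus strand, 5 exons) stood at 215, 83.0, 69.4 and 106 CPM at ZT1 and at 55.8, 83.6, 134 and 147 CPM at ZT13. Again ZT1 replicate 1 was highest and ZT13 replicate 1 lowest, and the other 6 libraries interleaved. The mean CPM was 118 ± 66.4 (SD, n = 4) and 105 ± 42.7, and the log2 fold change was -0.17 ± 0.39 (95% interval -1.05 to 0.70; edgeR adjusted p = 0.943). It turned to 0.28 without ZT1 replicate 1 and to 0.03 without ZT13 replicate 1, so its direction rests on single libraries. Prtn3 (chr10:79874476-79883174, plus strand, 6 exons) stood at 124, 55.0, 52.5 and 69.5 CPM at ZT1 and at 46.2, 75.0, 84.6 and 97.4 CPM at ZT13. The order of the libraries was nearly that of Elane. Mean levels were 75.1 ± 33.2 (SD, n = 4) and 75.8 ± 21.8 CPM, and the log2 fold change was 0.01 ± 0.30 (95% interval -0.66 to 0.69; edgeR adjusted p = 0.995), and its sign turned in 8 of 18 alternative settings. The spread of log2 CPM exceeded that of 99.23% of genes of like level for Elane and of 96.81% for Prtn3.

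Ctsg, the gene of cathepsin G, a chymotrypsin-like serine protease (chr14:56099881-56102574, minus strand, 5 exons), was per length the lowest of the 3 classical protease genes. Its levels were 22.3, 7.26, 3.59 and 9.19 CPM at ZT1 and 4.31, 19.8, 16.0 and 38.2 CPM at ZT13. Of the 4 ZT13 libraries, 1 lay among the lowest ZT1 values, 1 above every ZT1 library and the other 2 below the highest of them. Mean CPM was 10.6 ± 8.16 (SD, n = 4) at ZT1 and 19.6 ± 14.0 at ZT13, for a log2 fold change of 0.88 ± 0.65 (95% interval -0.58 to 2.34; edgeR adjusted p = 0.752). That value was 1.54 without ZT1 replicate 1 and 0.33 without ZT13 replicate 4. The spread over libraries exceeded that of 99.37% of the 3195 genes of like level, and the highest library held 10.6 times the CPM of the lowest.

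Prss57, the gene of neutrophil serine protease 4 (chr10:79781474-79790961, minus strand, 6 exons), lies 83515 bases from Prtn3 and had a different profile. Its levels were 12.5, 11.98, 10.1 and 7.20 CPM at ZT1 and 18.3, 9.56, 19.0 and 7.92 CPM at ZT13. ZT13 replicates 1 and 3 were above all other libraries, and the remaining ZT13 libraries lay within the ZT1 range. Mean CPM was 10.4 ± 2.40 (SD, n = 4) and 13.7 ± 5.76, for a log2 fold change of 0.39 ± 0.32 (95% interval -0.33 to 1.11; edgeR adjusted p = 0.789). It was 0.19 without ZT13 replicate 3 and 0.58 without ZT13 replicate 4. Prss57 shares 1157 exonic bases with Fstl3 on the opposite strand, and 38.4% of its 50-base words also occur in Fstl3 transcripts. The library kit does not mark strand, so such reads cannot be assigned, although Fstl3 itself was at 1.08 to 2.81 CPM.

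Ctsc, the gene of cathepsin C (dipeptidyl peptidase I), the lysosomal enzyme that activates the serine proteases (chr7:88278085-88310888, plus strand, 9 exons), was per length the most abundant member and the least variable. Its levels were 1341, 1142, 1495 and 1484 CPM at ZT1 and 800.5, 1150, 986 and 1139 CPM at ZT13. The groups overlapped only through ZT1 replicate 2 and ZT13 replicate 2, which differed by less than 10 CPM. The means were 1365 ± 165 (SD, n = 4) and 1019 ± 164 CPM, and the log2 fold change was -0.42 ± 0.13 (95% interval -0.72 to -0.12; edgeR adjusted p = 0.473). Under the 18 alternative settings it ranged from -0.50 to -0.32, and the adjusted p from 0.131 to 0.815. Ctsc also tracked library measures, with r = 0.669 (Spearman 0.762) against the log total count and r = 0.617 (0.81) against the log number of detected genes over the 8 libraries (0.665 and 0.404 without the extreme libraries of each measure), which themselves differed between the groups in the second case. The part of these measures in the Ctsc difference was not tested.

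Ms4a3, which encodes a membrane-spanning protein known from granulocyte and monocyte progenitors (chr19:11629496-11640851, minus strand, 7 exons), stood at 44.8, 29.5, 21.9 and 24.4 CPM at ZT1 and at 13.8, 15.8, 34.1 and 29.6 CPM at ZT13. ZT1 replicate 1 was highest and ZT13 replicates 1 and 2 were lowest, with overlap between the groups. Mean CPM was 30.2 ± 10.2 (SD, n = 4) and 23.3 ± 10.1, for a log2 fold change of -0.37 ± 0.33 (95% interval -1.11 to 0.37; edgeR adjusted p = 0.805). It was -0.12 without ZT1 replicate 1 and -0.62 without ZT13 replicate 3. Bpi, the gene of the bactericidal/permeability-increasing protein that binds lipopolysaccharide (chr2:158258094-158284531, plus strand, 15 exons), had 13 counts in ZT1 replicate 2 and 0 in each of the other 7 libraries. A count of 0 allows up to 3 counts, or 0.0414 to 0.0673 CPM at these depths (counting error only), so Bpi mRNA was not detectable at this depth in those libraries. Lbp, the gene of a related lipopolysaccharide-binding protein 21962 bases from Bpi, was at 90.2 to 126 CPM in the same libraries.

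**Figure D2:**
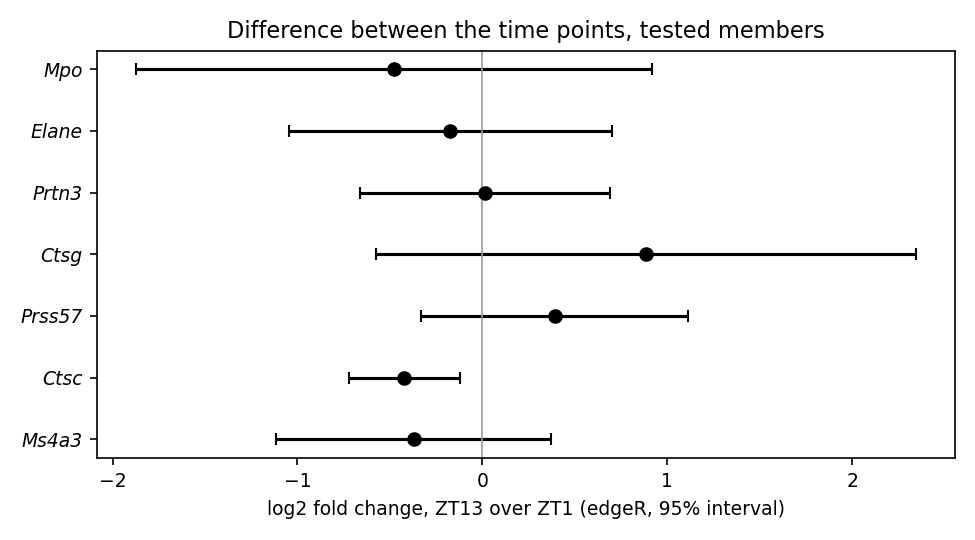
Log2 fold change of ZT13 over ZT1 for the 7 tested members (points, edgeR) with 95% intervals (bars). The interval of Ctsc, -0.72 to -0.12, is the only one that does not reach 0, before adjustment over all genes.

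The order of the members was set per exonic length, as TPM averaged over the 8 libraries. Ctsc led with 467 (303.6 to 688), followed by Elane with 260.7 (125 to 599), Mpo with 113 (24.3 to 331) and Prtn3 with 99.2 (58.7 to 195). Ms4a3 had 32.4 (16.1 to 65.0), Ctsg 32.3 (7.14 to 71.4), Prss57 9.44 (5.39 to 14.2) and Bpi 0.0418. Ctsc was above Elane and Elane above Mpo in 8 of 8 libraries each, and Prtn3 was above Ms4a3 in 8. Mpo exceeded Prtn3 in 5 of 8 libraries, and Ms4a3 exceeded Ctsg, and Ctsg exceeded Prss57, in 6 of 8, so these neighbours changed places between libraries. Against Ltf, the lactoferrin gene of specific granules, the mean TPM of Ctsc was 2.12%, of Elane 1.18%, of Mpo 0.512%, of Prtn3 0.449% and of Ctsg 0.146%. Elane came before Mpo per length, with 984 annotated exonic bases against 3424, although Mpo had the higher mean CPM.

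A group of 5 members, Mpo, Elane, Prtn3, Ctsg and Ms4a3, varied together across libraries, though not equally. They were grouped by the correlations below, so those values are no separate support for the group. The following correlations are of log2 CPM over the same 8 libraries, which share preparation and depth, and are given as a description without a test. For Mpo, r was 0.969 with Elane, 0.930 with Prtn3, 0.844 with Ms4a3 and 0.804 with Ctsg (Spearman 0.952, 0.881, 0.857 and 0.786). Without the pair of libraries farthest from the median of Mpo, ZT1 replicate 1 and ZT13 replicate 1, these were 0.928, 0.822, 0.526 and 0.783. Elane and Prtn3 had r = 0.963 (0.976; 0.898 without the extreme libraries). Over the 10 pairs of these 5 genes r ran from 0.485 (Ctsg and Ms4a3) to 0.969, and from 0.739 to 0.977 once each time point was centred on its own mean. Without the extreme libraries of the first gene of each pair, it ran from 0.243 (Prtn3 and Ms4a3) to 0.941. Prss57 stood apart, with r from -0.306 to -0.02 against the 5 and -0.728 against Ctsc, and Ctsc had 0.03 to 0.403 against the 5. These last values moved with few libraries: without the extreme ones, Prss57 and Ctsc had -0.173, and Ctsc had -0.434 with Mpo, -0.523 with Elane and -0.555 with Prtn3. Neither total count (r = -0.02 for Mpo) nor the number of detected genes (r = -0.08; 0.347 without its extreme libraries) ran closely with Mpo.

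**Figure D3:**
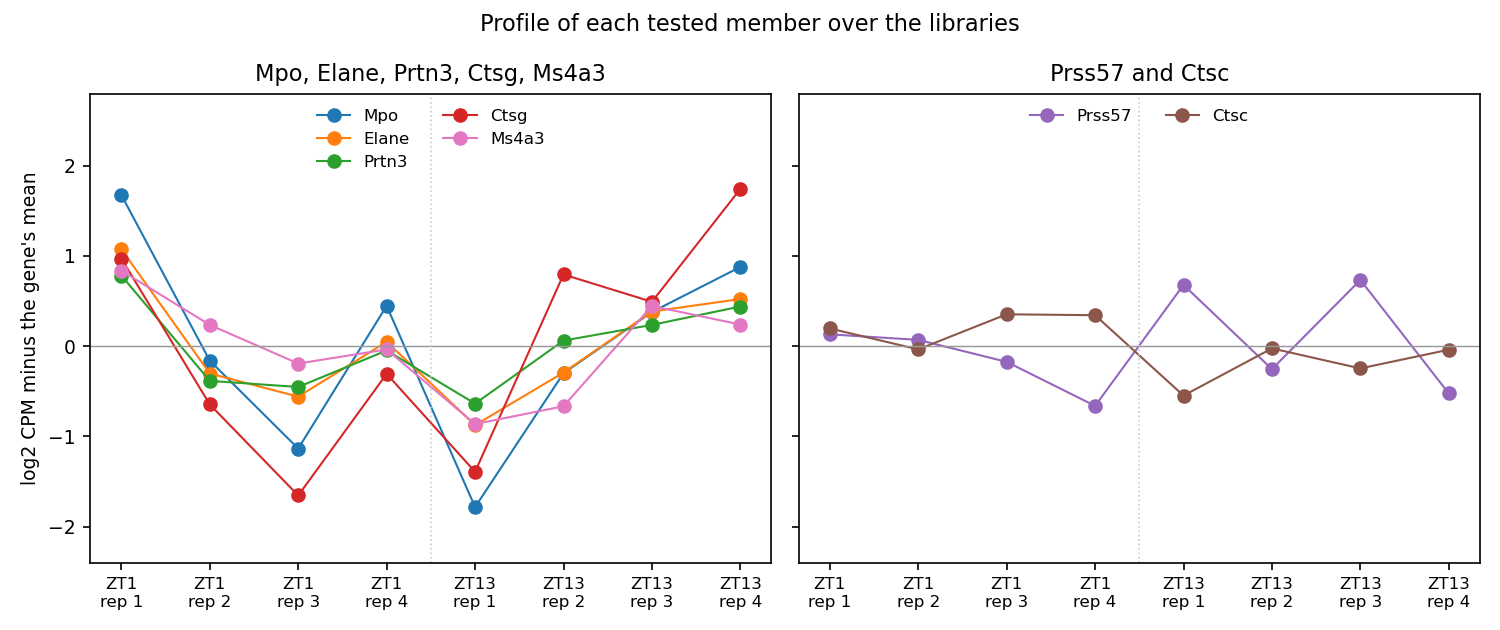
Profile of each tested member over the libraries, as log2 CPM minus its mean over the 8 libraries, with lines only to guide the eye. Mpo, Elane, Prtn3, Ctsg and Ms4a3 share a high ZT1 replicate 1 and a low ZT13 replicate 1, while Prss57 is high in ZT13 replicate 1.

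Among the 10376 named genes of 1 CPM or more compared with each member, Mpo and Prtn3 were the 1st and 2nd nearest to Elane. Elane was the 4th nearest to Mpo, Prtn3 the 14th, Ms4a3 the 81st and Ctsg the 157th, whereas Ctsc was the 1960th and Prss57 the 7685th. The 3 genes most like Mpo were Ccne2 (cyclin E2, of entry into DNA synthesis; r = 0.976), Ccdc34 (0.974) and Mcm6 (a subunit of the replicative helicase; 0.971). Mcm6 stood at 124, 65.6, 41.9 and 95.03 CPM at ZT1 and at 38.2, 56.2, 76.2 and 116 CPM at ZT13. The 8 libraries fell in the same order by Mcm6 as by Mpo (Spearman 1). Without the extreme libraries r was 0.978 for Mcm6 and 0.944 for Ccne2. The genes most like Prtn3, after Elane, were Slc18a2 (the vesicular monoamine transporter 2; r = 0.955) and Tipin (0.938), and those most like Ctsg were Keap1 (0.977), Slc18a2 (0.958) and Crnkl1 (0.946). For Ms4a3 they were Gtf3c2, Stub1 and Tmco4 (0.982, 0.978 and 0.957), for Prss57 Zfp260, Traf5 and Zfp26 (0.955, 0.936 and 0.935) and for Ctsc Tns3, Slc52a2 and Itch (0.956, 0.940 and 0.936). With 8 libraries and this many genes, high values occur for every gene, and the lists of nearest genes are short extracts.

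**Figure D4:**
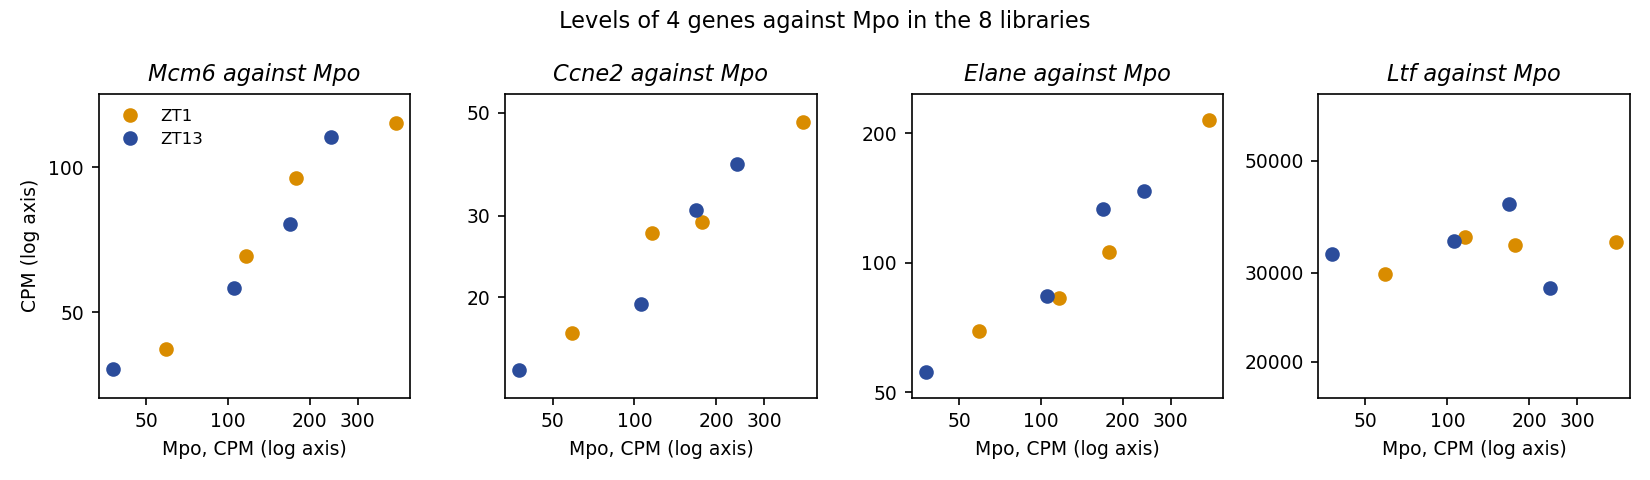
CPM of Mcm6, Ccne2, Elane and Ltf against CPM of Mpo in the 8 libraries (both axes log scale; orange ZT1, blue ZT13). Mcm6 keeps the order of Mpo in every library, while Ltf, with r = 0.15, does not follow it.

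Of the 20 cell cycle genes, 18 had a positive r with Mpo, with a median of 0.498 (0.451 without the extreme libraries), beside a median of -0.035 over 10487 genes of 1 CPM or more, those without a gene name included. For the other members with the shared profile the median was 0.506 (Elane; 0.208 without its extreme libraries), 0.444 (Prtn3; 0.051), 0.327 (Ms4a3; 0.501) and 0.27 (Ctsg; 0.209). The highest were Mcm6 with 0.971, Rrm2 (ribonucleotide reductase) with 0.938, Mcm3 with 0.914 and Mcm2 with 0.855, all genes of DNA replication. Other replication genes of the list were lower, with Tyms at 0.73, Mcm5 at 0.561 and Pcna at 0.474, and lay among genes of mitosis and proliferation such as Cdk1 at 0.672, Mki67 at 0.652 and Ccnb1 at 0.506. The lowest was Ube2c at -0.243, and these roles were looked at after the values were seen. Progenitor and promyelocyte genes had a median r of 0.021 (17 genes, 9 of them above 0), specific and gelatinase granule genes -0.098 (20, 9), mature neutrophil genes -0.329 (20, 0) and monocyte and macrophage genes -0.519 (16, 1). Fcnb and Cebpe are in both the progenitor and the specific granule list.

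In contrast to the shared profile, the ratio of Mpo to Ctsg counts was higher in the ZT1 libraries than in the ZT13 libraries. It was 18.6, 16.0, 16.5 and 19.3 at ZT1 and 8.75, 5.35, 10.6 and 6.26 at ZT13, without overlap. The geometric means were 17.5 and 7.46, or 2.35-fold, and the difference of log2 ratios was -1.23 (-1.40 to -1.07 when each library was left out). Of the 21 pairs of tested members it was the 1 pair whose ratios did not overlap, and it was singled out after its values were seen, so no test is given. The ratio of Mpo to any other tested gene did not overlap between the groups in 0.373% of genes, and that of Ctsg in 1.32%. Centred within time points, log2 CPM of Mpo and Ctsg had r = 0.962. Over all genes of 1 CPM or more, the median r (not centred) was -0.035 with Mpo and -0.027 with Ctsg. The shares above come from genes unlike this pair, so they do not measure how rare its ratio is. The ratio of Elane to Prtn3, the neighbouring pair, ran only from 1.12 to 1.74, and that of Mpo to Elane from 0.676 to 1.93 with overlap.

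**Figure D5:**
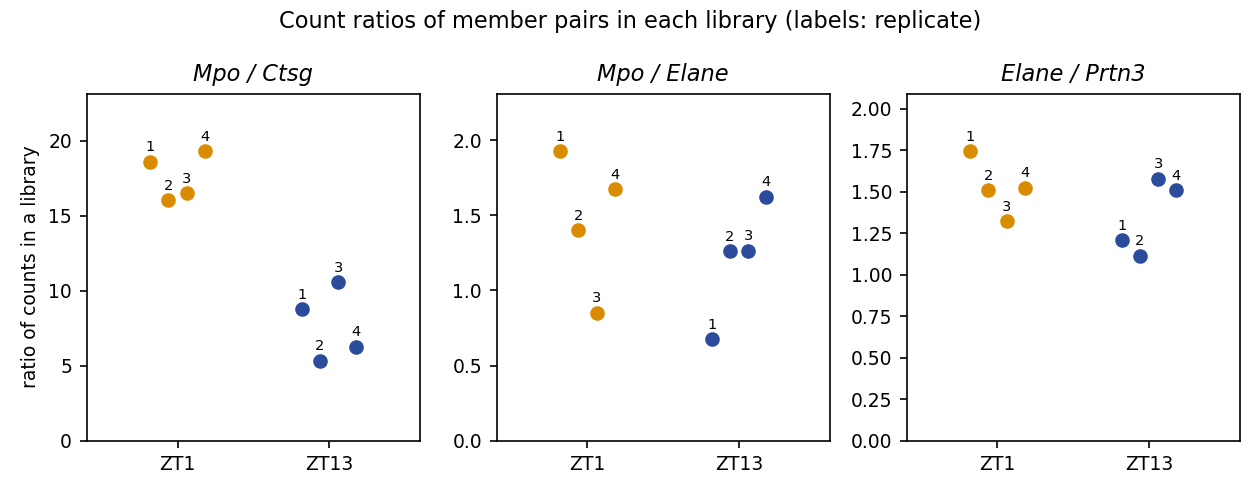
Count ratios within each library for pairs of members (points labelled by replicate, ZT1 and ZT13 side by side). For Mpo over Ctsg, the 4 ZT1 libraries lie at 16.0 to 19.3 and the 4 ZT13 libraries at 5.35 to 10.6.

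The other genes of the pathway gave no call with edgeR after adjustment. DESeq2 called 6 of 147 tested genes over all the lists described here, beside 0.94% of all genes it tested. None was a packaging gene or an inhibitor: Fpr2, Msrb1, Lcn2 and Ly6c2 were higher and Mrc1 and Prf1 lower at ZT13. For Mrc1 and Prf1 the DESeq2 log2 fold changes were -5.17 and -6.75, and the edgeR adjusted p was 0.433 and 0.255. Among 12 genes of granule packaging and membrane (proteoglycan, lysozymes, sorting and membrane proteins), 7 had positive and 5 negative log2 fold changes, with a median of 0.03. Beside 9.2% of all genes, 1 of the 12 had an unadjusted p under 0.05. That gene, Cd63, a tetraspanin of azurophil granule membranes, stood at 206 ± 38.3 (SD, n = 4) at ZT1 and 266 ± 16.4 CPM at ZT13 (log2 fold change 0.37 ± 0.13; edgeR adjusted p = 0.491). Srgn, the proteoglycan serglycin that holds the cationic proteases in the granule, stood at 1280 ± 529 and 1331 ± 280 CPM, and Lyz2, a lysozyme, at 25095 ± 4421 and 25892 ± 2781.

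Among 12 tested genes listed as inhibitors of the granule proteases, 11 had positive log2 fold changes and 1 a negative one. The median was 0.43 beside -0.02 over all genes. The 12 include the cystatin and stefin genes Cst3, Cst7, Cstb, Stfa1, Stfa2 and Stfa3, whose products inhibit cysteine proteases and not serine proteases. At an unadjusted p under 0.05 there were 6 higher and 1 lower at ZT13, beside 548 higher and 612 lower of all 12610 genes, and 0 passed the adjusted threshold. Cstb and Stfa1 were among the 6. Specific and gelatinase granule genes leaned the same way, with 16 of 20 positive (median 0.16) and 6 higher and 1 lower at that p. Of 20 mature neutrophil genes, 12 were positive (median 0.16), with 5 higher and 2 lower. The inhibitors share the libraries, so they are not separate observations. Serpinb1a, an intracellular inhibitor of elastase, proteinase 3 and cathepsin G, stood at 772, 769, 788 and 788 CPM at ZT1 and 849, 1043, 1165 and 854 CPM at ZT13. Its libraries did not overlap, and its log2 fold change was 0.33 ± 0.11 (edgeR adjusted p = 0.491). Serpinb6a, an inhibitor of cathepsin G, did not overlap either (33.5 ± 3.95 and 41.8 ± 3.48 CPM, SD, n = 4; log2 fold change 0.32 ± 0.13; edgeR adjusted p = 0.519). They were the only 2 of the 12 without overlap, beside 5.66% of all genes tested. Wfdc17 had a log2 fold change of 0.88 ± 0.31 and Wfdc21 of 0.67 ± 0.22, while Slpi, the secretory leukocyte protease inhibitor, had 0.23 ± 0.24. Serpina3g, at 2.48 ± 2.03 and 0.564 ± 0.312 CPM, had -2.13 ± 0.79, and Serpina3n was at 0 in all libraries.

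Progenitor and promyelocyte genes were read as a description of stage, and the list shares Fcnb and Cebpe with the specific and gelatinase granule list. Of 18 progenitor and promyelocyte genes tested, 8 had positive and 10 negative log2 fold changes (median -0.16). At an unadjusted p under 0.05 there was 1 of 18 (Runx1, -0.45 ± 0.17), beside 9.2% of all genes. Kit, the stem cell factor receptor of progenitors and mast cells, was at 17.0 to 35.6 CPM, Myb at 5.22 to 20.5 and Cd34 at 0.666 to 5.40, and Mycn was at 0 in all libraries. Fcnb, ficolin B, was at 141 to 265 CPM. Of the 20 cell cycle genes, 3 had positive and 17 negative log2 fold changes (median -0.19), beside 52.3% negative and a median of -0.02 over all genes. At an unadjusted p under 0.05 there were 3 of 20, beside 9.2% of all genes, with Hmgb2 higher and Top2a and Ccnb1 lower at ZT13. Mki67, the proliferation marker, stood at 105 ± 33.7 (SD, n = 4) and 78.6 ± 10.1 CPM. Its highest library was ZT1 replicate 1, as for Mpo, and its lowest ZT1 replicate 3.

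Markers of other cells that the sort could hold were read as whole lists. Mast cells and basophils carry relatives of cathepsin G: of their 12 listed genes 6 were in the table, with Gata2 at 0 in all libraries, Mcpt8 at up to 0.683 CPM and Ms4a2 at up to 1.28. The sum of that list, 2720 to 3687 CPM at ZT1 and 2038 to 2907 at ZT13, was carried by Hdc, histidine decarboxylase, which neutrophils also express. All 17 monocyte and macrophage genes were present, summing to 4088 to 5629 CPM at ZT1 and 3624 to 5531 at ZT13, and 9 of 10 microglia genes were tested, summing to 1576 to 1882 and 1920 to 2026. Eosinophil genes (8 of 9 in the table) summed to 23.0 to 32.9 and 23.9 to 41.3 CPM, T and NK cell genes (12 of 14) to 9.31 to 20.1 and 8.84 to 22.2, and B cell genes (5 of 8) to 136 to 249 and 154 to 194. Erythroid genes (8 of 8) summed to 0.422 to 3.84 CPM at ZT1 and 2.59 to 30.1 at ZT13, and neural, glial and endothelial genes (11 of 14) to 123 to 183 and 119 to 238. The part of these cells in the levels of the 8 genes was not tested.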

How the data were processed

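RNA of 8 samples of sorted spinal cord neutrophils (ZT1, n = 4; ZT13, n = 4; 1 batch per the labels) was sequenced. Per the labels' protocols, cDNA was made with SMART-Seq v4 from total RNA and libraries with Nextera XT, which does not mark strand, read as single reads of 50 bases. What the authors deposited is 1 gene table of raw counts. The submitters' processing notes name build GRCm38, STAR 2.7.10b, Subread 2.0.3 with featureCounts, FastQC and DESeq2 1.46.0. Roles of the tools, annotation release, strand setting and treatment of multi-mapping reads were not given in the sources used here. Gene names, lengths and positions came from GENCODE M21, a release other than that of the counts: without version numbers 22222 identifiers matched, and the other 1147 took 0.125% of all counts.

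Tests on the counts used R 4.3.3 and edgeR 4.0.16, with a filter on low counts by group (filterByExpr, minimum 10, total 15; 12610 genes kept), TMM factors, robust quasi-likelihood F-tests of ZT13 over ZT1, and Benjamini-Hochberg adjustment over all genes with a threshold of 0.05. SE is the absolute log2 fold change over the square root of F. CPM is scaled by TMM factors, log2 CPM uses a prior count of 2, and TPM divides counts by annotated exonic length. The common biological coefficient of variation, the square root of edgeR's common dispersion, was 0.498. Members and lists were chosen with earlier results of these data known. Named are all members, up to 4 genes of highest CPM and up to 3 of smallest p per list (not all are printed), neighbours within 50 kb and the 3 genes most like each tested member; Myb, Cd34, Kit, Mki67, Slpi, Fcnb, Mcm6 and the other cell cycle genes given with an r were named after their values were seen where they fall outside this rule. Groups came from sample titles. The procedure was tested on simulated data. Alternatives changed the normalization, filter, test (DESeq2 1.42.0, limma 3.58.1), replicate block and samples (each left out in turn).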

Additional observations from a re-analysis of the deposited data

Results flagged for a closer look

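Of 52 groups of 4 libraries examined, 3 had a library set apart from the other 3 by a gap above Dixon's 95% critical value, which chance gives in about 1 in 20 groups. Bpi stood at 0.279 CPM in ZT1 replicate 2 and at 0 in the other 3 ZT1 libraries. The summed erythroid genes, led by the haemoglobin gene Hbb-bs, stood at 3.84 CPM in ZT1 replicate 3 and at 30.1 CPM in ZT13 replicate 4, each the highest of its group. Mpo in ZT1 replicate 1, at 415 CPM, did not pass this criterion.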

How the results depend on the processing

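The number of members called was 0 in the main test and in all 18 alternatives, and 7 members kept their side of the threshold in each. Over all genes, DESeq2 called 118 of the filtered genes and 256 when run on all genes (added after seeing the data), and the same 6 genes of the other lists in either run, where edgeR called 0 of all genes at its threshold and 1160 at an unadjusted p under 0.05. The log2 fold change of Prtn3 turned to -0.081 with library totals, -0.0087 without a filter and -0.21 with the block from library names; leaving out single libraries gave -0.13 to 0.36. Leaving out single libraries gave -0.88 to 0.23 for Mpo and -0.38 to 0.28 for Elane: ZT1 replicate 1 turned both, to 0.23 and 0.28, and ZT13 replicate 1 turned Elane to 0.033. The other members kept their direction in all 18: Ctsg 0.07 to 1.54, Prss57 0.19 to 0.58, Ctsc -0.50 to -0.32 and Ms4a3 -0.71 to -0.12. The cause was not tested. The difference in detected genes was -807.5 for genes with 10 or more counts (exact permutation p = 0.0571) and -2359.8 to -1661.6 when a library was left out, with p = 0.0571 in 7 of those 8 cases. With the replicate number from titles as a block, 0 genes were called and Mpo had -0.24; with the number from library names, 0 genes and -1.11. Same-numbered samples did not deviate together (r = -0.04 to 0.05), so no pairing by number was seen, though this check cannot exclude one. Other scalings moved the median of all genes by less than 0.1. With 3 counts worth 0.0414 to 0.0673 CPM, depth limits only Bpi; for the other members the spread between libraries sets the precision.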

Other observations

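Genes next to the members varied less over the libraries in most cases named here. Beside Elane and Prtn3 on chromosome 10, Med16 (a Mediator subunit) stood at 45.7 to 61.8 CPM and R3hdm4 at 717 to 857, with r = 0.225 and 0.053 against Elane over the 8 libraries, while Ptbp1, a splicing regulator, stood at 58.0 to 99.0 CPM with r = 0.503. Plppr3, whose exons overlap those of Prtn3 by 159 bases, stood at 6.64 to 24.0 CPM with r = 0.376 against Prtn3, and 6.45% of the 50-base words of Prtn3 also occur in it. Within 50 kb of Ms4a3, its relative Ms4a6d stood at 71.1 to 181 CPM with r = -0.46. The antisense gene Gm11505, which overlaps 512 exonic bases of Mpo, had 1 count in all libraries together.

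Prss57, the member that did not run with Mpo, had a positive r with all 20 specific and gelatinase granule genes (median 0.368; 0.157 without ZT13 replicates 1 and 3, its extreme libraries). Over all 10487 genes compared, 5044 had a positive r with Prss57 and the median was -0.023. The 20 genes share the libraries and vary together, so they are not separate observations.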
